A study of Drosophila melanogaster with 9 samples.

Results

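The paraquat-leaning KDM5 regions are places in the Drosophila melanogaster genome where the peak lists of both paraquat libraries held a peak of HA-tagged KDM5, and the lists of the control libraries held a peak in at most 1 of 2. They were chosen by the presence or absence of a peak in the 4 anti-HA lists. The lists were merged wherever peaks shared at least 1 bp, which gave 7537 regions, 6897 of them on the chromosome arms 2L, 2R, 3L, 3R and X. Of these arm regions 572, or 8.29%, met the rule. The counts and peak heights in the 4 anti-HA lists therefore describe the choice and carry no test. The wildtype KDM5 and H3K4me3 lists, and the position of the regions, did not enter the rule.

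KDM5, also known as Little imaginal discs, is the only KDM5-family histone demethylase of the fly. Its Jumonji C domain removes methyl groups from lysine 4 of histone H3, and the trimethylated form, H3K4me3, marks the promoters of active genes. Paraquat is a redox-cycling herbicide that generates superoxide and is fed to flies to cause oxidative stress, and KDM5 has been linked in flies to the expression of oxidative stress resistance genes.

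All samples were whole adult females aged 1 to 3 days, profiled by chromatin immunoprecipitation and sequencing (ChIP-seq). Control flies were fed 5% sucrose for 6 hours and paraquat flies 5% sucrose with 20 mM paraquat for 6 hours, with 2 anti-HA libraries each. Both groups had the genotype k6801/k6801;gHA-KDM5, a homozygous kdm5 mutant allele with a transgene that supplies HA-tagged KDM5, so the controls carried both too. Wildtype w1118 flies gave 1 library with an antibody against KDM5 and 1 against H3K4me3, with no sucrose or paraquat feeding recorded. Another 3 samples were inputs and were not analysed here. The labels do not state that the 2 libraries of a condition are from separate groups of flies, and their spread may be technical. In whole animals, KDM5 bound in more cells and KDM5 bound more strongly per cell cannot be told apart.

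The anti-HA lists held 5886 and 4919 peaks in control libraries 1 and 2, and 7403 and 4853 in paraquat libraries 1 and 2. Paraquat library 1 thus had the longest list and paraquat library 2 the shortest. Pileup is the number of ChIP fragments stacked at a peak's summit. The weakest peaks had pileups of 27 to 30 fragments in all 4 lists. The lowest local background, recovered as (pileup + 1)/fold - 1, was 12.5 to 14.7 fragments. Read totals were not given, so depth is unknown. The permutation of 2 libraries against 2 allows no p below 1 in 3, and no test of paraquat against control was made.

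The 572 regions fell into 3 patterns. In 138 regions neither control library had a peak, in 217 only control library 1 had one, and in another 217 only control library 2 had one. Most of them, 434 of 572, were thus also bound in control flies by the call in 1 library. The mirror class, with a peak in both control libraries and in at most 1 paraquat library, held 265 regions, or 3.84% of the arm regions. Its make-up was uneven. In 250 of the 265 the missing list was that of paraquat library 2, in 6 it was that of paraquat library 1, and in 9 both were missing.

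Pairs of libraries formed without regard to treatment gave counts of the same order. Control 1 and paraquat 1 shared 934 regions held by at most 1 number 2 library (13.5% of the arm regions), and control 2 and paraquat 2 shared 285 by the same rule (4.13%). Among crossed pairs, control 2 with paraquat 1 gave 550 regions (7.97%) and control 1 with paraquat 2 gave 229 (3.32%). The 3 pairs with paraquat library 1 were the 3 largest classes. A region with peaks in exactly 3 libraries belongs to 3 of the 6 classes, so the classes are not separate: the 217 regions with control 1 only are also in the number 1 class, and the 217 with control 2 only are also in the number 2 class. Regions held by a pair and by no other library numbered 138 for the paraquat pair, 9 for the control pair, 467 for number 1, 62 for number 2, 83 for control 2 with paraquat 1 and 6 for control 1 with paraquat 2.

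The excess over the mirror class depended on how peaks were drawn. When every list was shortened to its 4853 strongest peaks by p-value, 487 regions leaned to paraquat and 253 to control, beside 509 for number 1 and 476 for number 2. When each peak was replaced by 200 bp around its summit, 749 leaned to paraquat and 678 to control. With both changes 637 leaned to paraquat and 628 to control; this combination was added after the data had been seen. Of the 572 members 347, or 60.7%, met a region that still leaned to paraquat at equal list lengths. With 200 bp intervals 533 did, and with both changes 331 did. When peaks up to 200 bp apart were merged, 453 (79.2%) did, and 119 met a region with peaks in all 4 libraries.

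**Figure D1:**
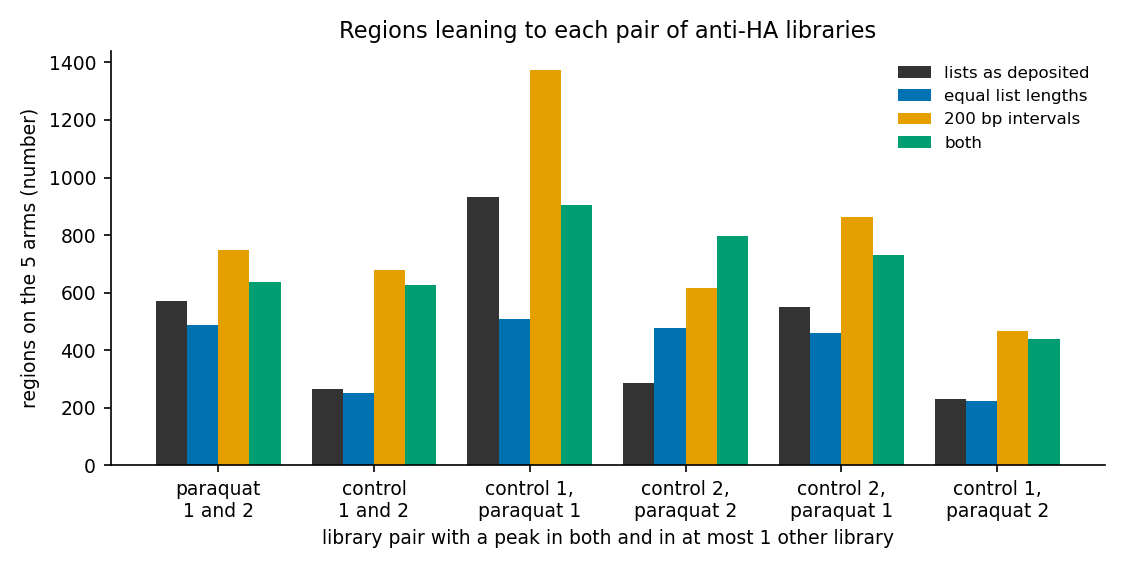
Bars give the number of merged regions on the 5 arms (y axis) with a peak in both libraries of the named pair and in at most 1 other library, for the 6 possible pairs (x axis), with the deposited lists, equal list lengths, 200 bp intervals and both changes. The paraquat pair has 572 regions and the control pair 265 with the deposited lists, and 637 and 628 with both changes, while number 1 is the largest pair in all 4 settings.

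Paraquat-leaning regions ranked low in the anti-HA lists that chose them, where the absence of a peak from at least 1 list favours low ranks. Their highest peak had a median pileup of 44 fragments in paraquat library 1 (range 30 to 82) and of 38 in paraquat library 2 (range 29 to 77). Ranked by pileup within each list, where 100 is the strongest peak, the medians were the 38.5th percentile in library 1 (95% order-statistic interval 36.5 to 40.7) and the 23.3rd in library 2 (23.3 to 27.1). The core regions, 3337 arm regions with a peak in all 4 libraries, had medians of 75.1 and 63.1. Of the members, 149 lay above the 50th percentile in library 1, 91 in library 2 and 35 in both. Only 4 lay above the 75th percentile in both lists. In 143 of the 572, or 25.0%, the weaker paraquat peak was in the lowest 10% of its list by p-value.

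The 3 patterns ranked differently in the paraquat lists. Members with no control peak had the lowest pileup in paraquat 1, with median pileups of 40 fragments in paraquat 1 and 37 in paraquat 2, at the 29.4th and 19.5th percentiles. Members with control 1 only had median percentiles of 33.7 in control 1, 44.7 in paraquat 1 and 16.1 in paraquat 2. In 198 of these 217 (91.2%) the rank was higher in paraquat 1 than in paraquat 2, and 73 of their paraquat 2 peaks lay in the lowest 10% of that list by pileup. Members with control 2 only had median percentiles of 38.8 in control 2, 40.7 in paraquat 1 and 38.3 in paraquat 2, and 110 of 217 (50.7%) ranked higher in paraquat 1. Members seen in control 1 thus stood lower in paraquat 2 than members seen in control 2 did. In the 250 control-leaning regions without a paraquat 2 peak, median percentiles were 30.7 in control 1, 18.7 in control 2 and 46.6 in paraquat 1.

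**Figure D2:**
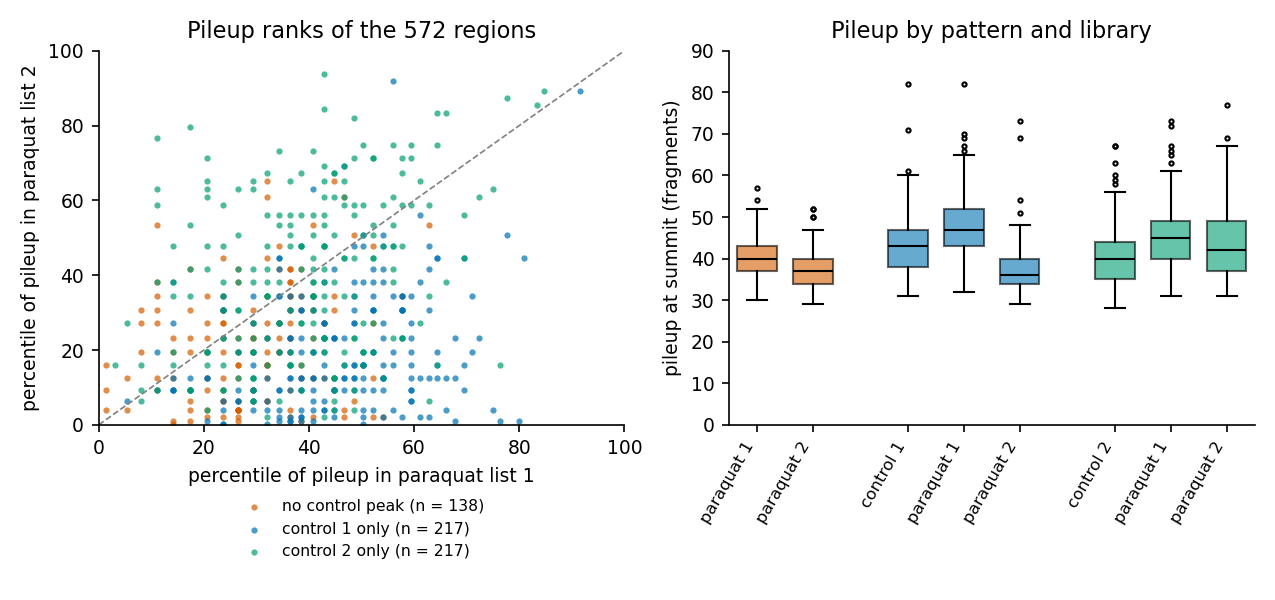
Left, the percentile of each region's pileup in paraquat list 2 (y axis) against that in paraquat list 1 (x axis), with colours for the 3 patterns and a dashed line of equal rank. Right, pileup at the summit in fragments by pattern and library (boxes, quartiles and median; whiskers, 1.5 times the box; points, beyond). The regions with control 1 only lie mostly below the line, and median pileups run from 36 to 47 fragments.

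Values near the limit of the rule are given as a description. The core region with the weakest control peak, on 3R at 54468 to 54950 (dm3), had a -log10 q of 1.31 in control 2, where its pileup was 34, and 8.91 and 5.70 in paraquat 1 and 2. It lay outside the rule only through that peak. One of the 2 members that share the weakest paraquat 2 peak value, on 2R at 17169756 to 17169992, had a -log10 q of 1.38 in paraquat 1, 1.32 in paraquat 2 and 7.67 in control 2. It was a member only through those paraquat peaks. In 193 of the 3337 core regions (5.78%) the weaker control peak was in the lowest 10% of its list by p-value. A list gives no value where no peak was called, so how far the members fell short in the missing control library was not measured.

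The named regions are the 7 in each pattern with the highest mean percentile over the paraquat lists. Positions count from 1 in the dm3 build. Gene models of that build were not used here, so the genes at these positions are not given. Folds are the enrichment over local background that the authors' peak caller gave.

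Of the regions without a control peak, the highest ranked was 237 bp on 2L at 2849786 to 2850022, with pileups of 57 and 47 fragments in paraquat 1 and 2. Its folds were low at 2.17 and 1.96, over local backgrounds of 25.7 and 23.5 fragments, and it was the only 1 of the 138 with no wildtype KDM5 peak. A 559 bp region on 2L at 16287406 to 16287964 had pileups of 47 and 52, and lay 226 bp from a core region. On 2R, pileups were 48 and 50 at 10822997 to 10823376 and 51 and 45 at 13294378 to 13294921. The latter also held an H3K4me3 peak with a fold of 2.50. On X, pileups were 49 and 46 at 7184934 to 7185326 and 41 and 52 at 3614126 to 3614528. The second had the highest wildtype KDM5 fold of the 7, 9.24, and an H3K4me3 peak with a fold of 2.67. The last, on 3R at 18193217 to 18193514, had pileups of 45 and 47. Even these leading regions stood near the middle of the lists, at mean percentiles of 47.1 to 58.1.

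The strongest members had a control 1 peak or a control 2 peak, and 3 of them lay together. On 3L, regions at 8713117 to 8713269 (control 1 only), 8713562 to 8714182 and 8714727 to 8715104 (control 2 only) spanned 1988 bp and lay 115740 to 117350 bp from a core region. The first had pileups of 82 in control 1, 82 in paraquat 1 and 69 in paraquat 2. The second had 67 in control 2, 73 in paraquat 1 and 69 in paraquat 2, and the third 67, 72 and 65 in the same libraries. Their folds were only 1.66 to 2.21, over a local background of 31.7 to 39.9 fragments, where the list minima were 12.5 to 14.7. They were the only 3 members with a paraquat 1 background over 2 times the list minimum. Wildtype KDM5 was called at each with a fold between 4.38 and 5.68, and H3K4me3 at each with a fold between 2.07 and 2.34.

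Among the other leading members with control 1 only, a 157 bp region on X at 9084810 to 9084966 had pileups of 71 in control 1, 53 in paraquat 1 and 73 in paraquat 2. It had no wildtype KDM5 peak. Likewise without one was the 145 bp region on 3L at 13622637 to 13622781, with pileups of 60, 48 and 54. On X at 19074282 to 19074679 the pileups were 51, 67 and 46, with a wildtype KDM5 fold of 10.02 and an H3K4me3 fold of 3.01. On 3L at 8334184 to 8334750 they were 48, 70 and 44, and this region shared its wildtype KDM5 peak with a core region 109 bp away. The remaining 2 were 821 bp on X at 6554728 to 6555548 (49, 56 and 48) and 528 bp on 3R at 12306973 to 12307500 (54, 61 and 44). In 4 of these 6 regions paraquat 2 had the lowest pileup of the 3 libraries.

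Among the other leading members with control 2 only, the 405 bp region on 3L at 8292560 to 8292964 had pileups of 56 in control 2 and 67 in each paraquat library. Its wildtype KDM5 fold of 10.7 was the highest of any member. A region of the control 1 only pattern lay beside it, at 8291899 to 8292465, with pileups of 41 in control 1, 56 in paraquat 1 and 31 in paraquat 2, within the same 2186 bp wildtype KDM5 peak. That wildtype peak was shared with a core region, where both control libraries had a peak. The 2 control libraries thus differed at these members and not over the whole wildtype site. The member with the next highest wildtype fold, 10.6, was a region of 724 bp with control 1 only on 3R at 23432418 to 23433141, with pileups of 41, 44 and 38. On X, pileups were 51, 59 and 63 at 18264789 to 18265246, and 54, 58 and 63 at 12485830 to 12486354. On 2R at 4611721 to 4612006 they were 44, 58 and 57, and on 3R at 4066020 to 4066265 they were 48, 65 and 51. Of the 7 leading regions of this pattern, 6 had a higher pileup in both paraquat libraries than in control 2, and the third of the 3L cluster did not. They were chosen for high paraquat ranks, which favours that order. Pileups are not scaled to depth, so they do not compare amounts of KDM5 between libraries.

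The strongest regions of the control pair alone stood at percentiles of 13.2 to 45.7 in control 1 and 18.7 to 42.8 in control 2. The first, on 2L at 10436041 to 10436357, had pileups of 47 and 39 in control 1 and 2. The next, on 2R at 19634136 to 19634296, had 41 and 41, and the third, on X at 173406 to 173578, had 37 and 35. Wildtype KDM5 was called at all 3, with folds between 6.04 and 8.18, and H3K4me3 at none.

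Nearly all paraquat-leaning regions were KDM5 sites in wildtype flies, as were most regions of every other pair. A wildtype KDM5 peak overlapped 563 of the 572, or 98.4% (95% Wilson interval 97.04 to 99.2), against 94.1% of all arm regions. By pattern the share was 99.3% with no control peak, 98.6% with control 1 only and 97.7% with control 2 only. It was 95.4% for number 1, 96.1% for number 2, 98.5% for control 2 with paraquat 1 and 98.3% for control 1 with paraquat 2. In the mirror class it was 265 of 265, and the difference between members and mirror was -1.57 percentage points (95% Newcombe interval -2.96 to 0.0373). With wildtype and paraquat summits within 250 bp the members' share was 72.4%, and with 50% of both intervals overlapping it was 19.4%. The wildtype peaks were much wider, at a median of 1141 bp against 359.5 bp for the members, which limits overlaps of that kind.

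The wildtype peaks under the members had a median fold of 7.51 (order-statistic interval 7.33 to 7.74), at the 65.5th percentile of the wildtype list. Over all arm regions with a wildtype peak the median was higher, at 8.34 (8.28 to 8.42) and the 74.2nd percentile. In the mirror class the median was 8.04 (7.80 to 8.40), and in the core 8.90 (8.85 to 8.96). It was 7.88 for number 1, 7.05 for number 2, 7.68 for control 2 with paraquat 1 and 8.24 for control 1 with paraquat 2. Within the members the medians were 7.25 (6.93 to 7.59) with no control peak, 8.28 (8.01 to 8.49) with control 1 only and 7.07 (6.91 to 7.40) with control 2 only. The 9 members with no wildtype KDM5 peak were narrow, with a median width of 199 bp, and 5 of them had control 2 only.

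A wildtype peak often spanned more than the member. Of the 563 members with one, 161 (28.6%, interval 25.02 to 32.5) lay in a wildtype peak that held peaks of both control libraries somewhere along its length. Another 81 (14.4%, 11.7 to 17.5) lay in a wildtype peak with no control peak at all. The rule itself gives 434 of the 572 members a control peak, which favours the first count and limits the second. Neither share was computed over all arm regions. For the regions without any control peak, 55 of 137 had a control 1 peak and 49 a control 2 peak in the same wildtype peak. In the mirror class 66 of 265 (24.9%, 20.08 to 30.4) lay in a wildtype peak that held peaks of both paraquat libraries. In all, 533 wildtype peaks held a member, 36 of them held 2 or more, and 6 held both a control 1 only and a control 2 only member. With wildtype KDM5 peaks as the units, which was also added after the data had been seen, 429 leaned to paraquat and 203 to control.

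H3K4me3 was less frequent at the members than over all arm regions, which include the core regions that the rule excludes. Of the 3399 arm regions with the mark, 2794 were core regions. An H3K4me3 peak overlapped 176 of the 572, or 30.8% (27.1 to 34.7), against 49.3% of all arm regions and 83.7% (82.4 to 84.9) of core regions. In the mirror class 112 of 265, or 42.3% (36.5 to 48.3), held one. Among pairs formed without regard to treatment, the share was 37.0% for number 1 and 19.3% for number 2. It was 32.7% for control 2 with paraquat 1 and 45.4% for control 1 with paraquat 2. These classes share regions with the members, whose share lies within their range. The difference between members and mirror was -11.5 percentage points (Newcombe interval -18.5 to -4.51) with the deposited lists. At equal list lengths it was -2.59 points (-10.10 to 4.86), an interval that includes 0, with shares of 41.7% and 44.3%. With 200 bp intervals it was -22.9 points (-27.9 to -17.8).

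The mark divided the members by control library. With control 1 only, 104 of 217 regions held H3K4me3, or 47.9% (41.4 to 54.6). With control 2 only, 51 of 217 did, or 23.5% (18.4 to 29.6), and with no control peak 21 of 138, or 15.2% (10.2 to 22.1). The difference between the first 2 was 24.4 points (15.5 to 32.8). At equal list lengths it was 11.2 points (1.11 to 20.99), and with 200 bp intervals 23.2 points (15.2 to 30.9). The mirror regions that lacked only paraquat 2 had the mark in 44.8% (38.8 to 50.997), from which the members that lacked only control 2 differed by 3.13 points (-5.89 to 12.1). Lists of equal length turned that difference to -2.34 points (-13.1 to 8.499), and 200 bp intervals turned it to -4.94 (-12.1 to 2.24). With both changes it was -7.97 points (-15.9 to -0.111). With the deposited lists, the members with control 2 only were -21.3 points (-29.4 to -12.7) from the same mirror regions. These intervals treat regions as independent and cover counting error only.

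**Figure D3:**
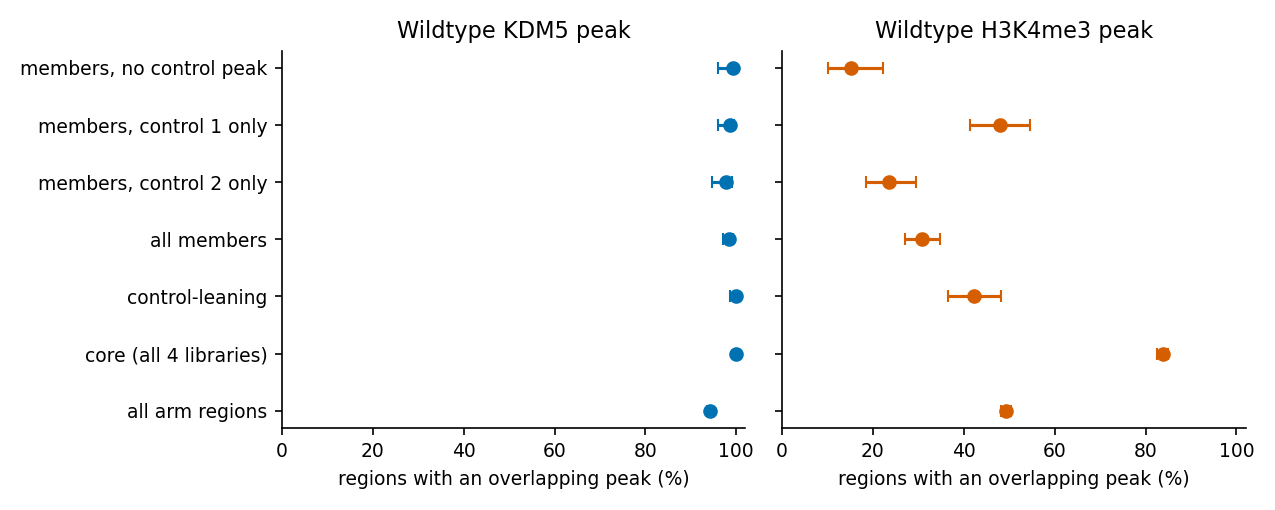
Points give the share of regions (x axis, percent) with an overlapping wildtype KDM5 peak (left) or H3K4me3 peak (right) in each class of regions (y axis), and bars are 95% Wilson intervals. KDM5 shares are all above 94%, whereas H3K4me3 shares run from 15.2% in members without a control peak to 83.7% in the core.

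The peaks of the mark at the members were modest as well. Their median H3K4me3 fold was 2.37 (2.30 to 2.42), at the 46.5th percentile of the H3K4me3 list, against 2.42 (2.32 to 2.49) in the mirror class and 2.73 (2.73 to 2.77) in the core. Several H3K4me3 peaks lay in 8 members, and in 531 core regions (15.9%). From a member's paraquat summit the nearest H3K4me3 summit was a median of 1090 bp away (807 to 1368). It was within 1000 bp for 276 members (48.3%), against 67.9% of all arm regions and 88.6% of the core regions among them. The highest H3K4me3 folds were 3.96 on 3L at 16045044 to 16045289, 3.29 on 3L at 8110004 to 8110231 and 3.21 on 2R at 20499253 to 20499432. All 3 were narrow and only modestly ranked by KDM5, at mean paraquat percentiles of 41.5, 9.0 and 10.1. H3K4me3 after paraquat was not measured, since its library is from w1118 flies.

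Members were of middle width. The merged regions had a median width of 359.5 bp (341 to 373) and ran from 107 to 1419 bp, against 410 bp (383 to 434) in the mirror class and 689 bp (679 to 703) in the core. Number 1 and number 2 regions had medians of 362.5 and 326 bp. The crossed pairs had 368.5 bp with paraquat 1 and 405 bp with paraquat 2. By pattern the medians were 264 bp with no control peak, 422 bp with control 1 only and 366 bp with control 2 only. A merged region grows with each peak added, so these widths follow in part from the number of libraries. The paraquat 2 peak alone had a median width of 179 bp. Paraquat 1 and 2 placed their summits close together, a median of 48 bp apart (46 to 55), which is near the 47 bp (44 to 51) of the core.

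Width moved with H3K4me3. The members' share with the mark went from 16.9% (9.72 to 27.8) in regions up to 200 bp to 60.9% in those over 700 bp. Over all arm regions the share went from 7.63% (6.51 to 8.93) to 94.3%. From 200 to 300 bp it was 17.0% of the members and 16.5% of all arm regions. The lower share at the members was thus not seen in these 2 narrow bins. For widths above 300 and up to 400 bp the share was 43.1% (30.5 to 56.7) of 51 regions with control 1 only, 21.4% (12.7 to 33.8) of 56 with control 2 only and 51.5% (44.6 to 58.4) of 198 core regions. For widths above 500 and up to 700 bp the shares were 64.5% (52.1 to 75.3) of 62, 36.4% (22.2 to 53.4) of 33 and 82.6% (80.2 to 84.7) of 1050. The mirror class had 56.7% (44.1 to 68.4) of 60 in that bin. The intervals of the control 1 only and control 2 only members overlap slightly in both bins. From 400 to 500 bp those shares were 52.4% (37.7 to 66.6) and 19.6% (10.7 to 33.2), with no overlap, whereas from 200 to 300 bp they were 19.5% (10.2 to 34.0) and 15.7% (8.17 to 28.01). Core regions of like width held the mark at a higher share than members with control 2 only in these bins, with overlapping intervals only from 200 to 300 bp. Where the wildtype KDM5 fold was in the top 25% of its list, 50.0% (42.7 to 57.3) of 176 members held H3K4me3, against 53.4% (44.4 to 62.3) of 116 mirror regions and 92.7% (91.5 to 93.8) of 2064 core regions. Of the 3160 arm regions in that range, which include the core, 69.3% (67.7 to 70.9) held the mark.

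**Figure D4:**
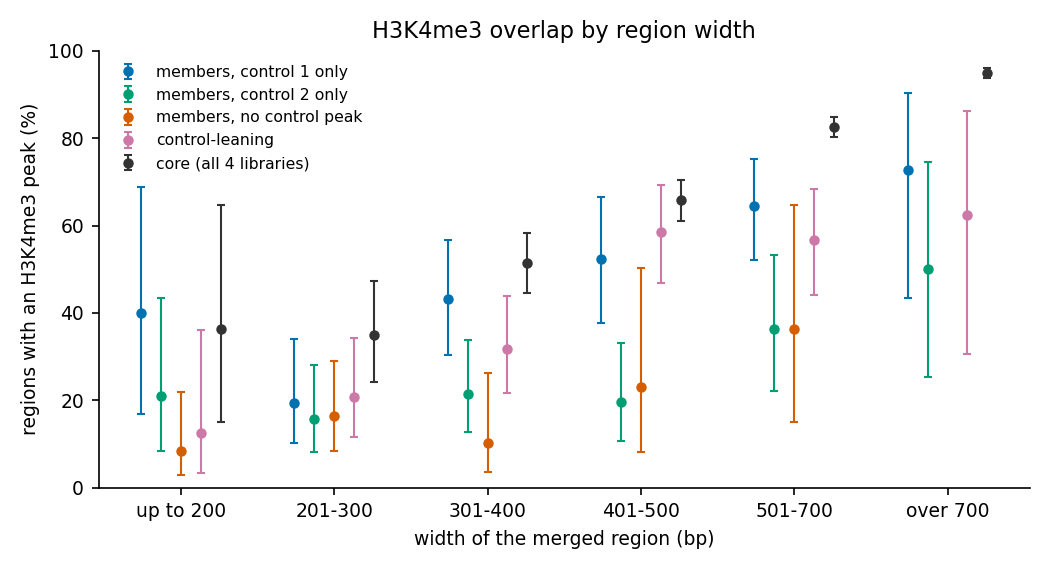
The share of regions with an H3K4me3 peak (y axis, percent) by bins of merged region width (x axis, bp) for the 3 patterns of members, the control-leaning regions and the core, with 95% Wilson intervals. Core regions of the bin from 500 to 700 bp hold the mark in 82.6%, members with control 1 only in 64.5% and members with control 2 only in 36.4%.

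Paraquat-leaning regions lay within 500 bp of a core site in a share that differed from that of core sites by -3.23 percentage points (-7.05 to 0.857). The median distance from a member's edge to the nearest core region was 2587 bp (2090 to 3061), against 1751 bp (1269 to 2218) in the mirror class and 1829 bp (1693 to 2005) from a core region to the next. For number 1 and number 2 regions that median was 1828 and 2968 bp. For the crossed pairs it was 2092.5 bp with paraquat 1 and 2288 bp with paraquat 2. A core region lay within 500 bp of 155 members, or 27.1% (23.6 to 30.9), and of 29.1% (23.9 to 34.8) of the mirror regions. The difference was -1.96 points (-8.67 to 4.42). Of the members 124 (21.7%) shared a wildtype KDM5 peak with a core region, against 17.7% of the mirror class, a difference of 3.94 points (-2.03 to 9.39). At the other end, 125 members (21.9%) were over 10000 bp from a core region, and 45 mirror regions (17.0%) were. That difference was 4.87 points (-1.05 to 10.3), so none of these 3 differences from the mirror class was larger than its counting error. Against core regions, the members' share beyond 10000 bp was higher by 4.65 points (1.20 to 8.43). Of all arm regions 19.2% lay beyond 10000 bp, which is inside the members' interval of 18.7 to 25.4. A core region lay within 500 bp of 33.0% of all arm regions, and 22.7% shared a wildtype KDM5 peak with one.

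Wildtype marks were counted beside and far from core sites. Within 500 bp of a core region 99.4% held a wildtype KDM5 peak and 33.5% (26.6 to 41.3) H3K4me3, and beyond 10000 bp 95.2% and 28.0% (20.9 to 36.4) did. The patterns differed in how many stood far out. Of members with control 2 only, 27.6% (22.1 to 34.0) were beyond 10000 bp, against 17.05% (12.6 to 22.6) of those with control 1 only, a difference of -10.6 points for control 1 minus control 2 (-18.3 to -2.76). The farthest members were on X at 23831 to 24016, with a core region 346054 bp away, and on 2R at 675526 to 676032 and 75396 to 75802, at 316835 and 282474 bp. All 3 held a wildtype KDM5 peak.

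**Figure D5:**
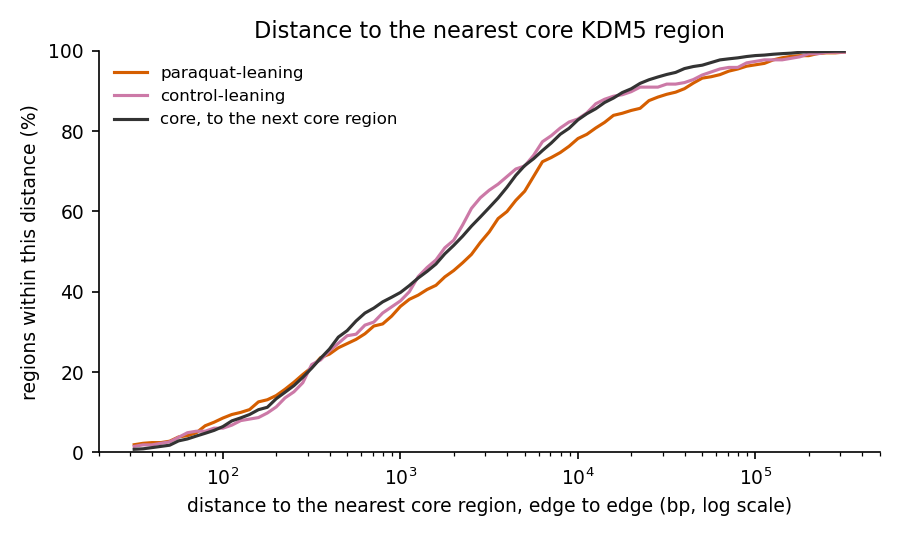
Curves give the share of regions (y axis, percent) whose nearest core region lies within the distance on the x axis (bp, log scale, edge to edge) for paraquat-leaning, control-leaning and core regions. The medians are 2587, 1751 and 1829 bp, and the curves lie close together below 500 bp.

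The missing control library had a peak within 500 bp of a minority of the members. Of the 355 members without a control 1 peak, 114 (32.1%, 27.5 to 37.1) had a control 1 peak within 500 bp of their edge, and of the 355 without a control 2 peak 128 (36.1%, 31.2 to 41.2) had a control 2 peak that near. For the 259 mirror regions without a paraquat 2 peak, 89 (34.4%, 28.8 to 40.3) had a paraquat 2 peak within 500 bp. The intervals of the 3 shares overlap. These shares were not computed over all arm regions. A core region, which holds peaks of both control libraries, lay within 500 bp of 33.0% of all arm regions and 27.1% of the members.

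The members were spread over the arms much as all KDM5 regions were. The arm 3R held 143 (25.0%, 21.6 to 28.7), X 117 (20.5%, 17.4 to 23.95), 2R 111 (19.4%), 3L 109 (19.1%) and 2L 92 (16.1%, 13.3 to 19.3). Of all arm regions 24.5%, 18.4%, 20.7%, 19.0% and 17.4% lay on the same arms, each within the members' interval. On X the members were 9.23% of the arm's regions, and on 2L 7.66%. H3K4me3 was found at 21.7% of the members on 2L and at 29.4% to 36.7% on the other arms. Most members stood alone, with a median of 34025.5 bp to the next, and 87 (15.2%) had another within 1000 bp.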

How the data were processed

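The 6 deposited peak lists were made by the authors with MACS2 from Bowtie alignments to dm3 of reads from CASAVA 1.4, per the submitters' processing notes. Versions of Bowtie and MACS2, their settings and the input paired with each library were not given in the sources used here. Each deposited list comes from 1 library and gives, without a header, the pileup signal at the summit, the -log10 of the p-value and q-value, and the fold ratio over local background. The largest q-value in a list was 0.0421 to 0.0498. Wildtype KDM5 pileups are on a scale of their own and were used only within that list.

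Lists were merged in Python 3.11.15 with pandas 2.3.3 at an overlap of at least 1 bp, checked against bedtools 2.31.1 and tested on simulated data. Where a region held several peaks of a library, the highest pileup was used. Percentiles are ranks within the full deposited list, also where lists were shortened. Shares carry 95% Wilson intervals, their differences Newcombe intervals, and medians order-statistic intervals, all for counting error over regions. The region classes and named regions were chosen with earlier results of these data known. In addition to the 7 regions per pattern, the 3 members with the highest H3K4me3 fold, the highest wildtype KDM5 fold and the largest core distance, and the 3 strongest regions of the control pair alone, were named. Alternatives covered list length, q-value, interval width, merging distance, chromosomes and each library left out.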

Additional observations from a re-analysis of the deposited data

Results flagged for a closer look

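Off the 5 arms, in data outside the comparisons, 15 of 640 regions leaned to paraquat by the same rule, against 5 that leaned to control. Of the 15, 11 lay on the unplaced scaffolds U and Uextra and 2 on chromosome 4. A wildtype KDM5 peak overlapped 10 and an H3K4me3 peak 7. Neither control library had a peak in 6 of them. By the same rule 234 regions off the arms leaned to number 1 and 8 to number 2. The difference between 15 and 5 was not tested.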

How the results depend on the processing

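No test was run on the members, so the values below are counts, shares and medians recomputed under other choices. No paired analysis was possible because the counts come from no test. The paraquat-leaning count ran from 392, with wildtype KDM5 peaks as units at equal list lengths, to 749, with 200 bp intervals, over the 8 other ways of drawing regions, and was above the control-leaning count in each. At equal list lengths the number 1 count fell to 509 and the number 2 count rose to 476. With 200 bp intervals the counts were 678 for control-leaning, 616 for number 2, 862 for control 2 with paraquat 1 and 468 for control 1 with paraquat 2. With both changes they were 628 for control-leaning, 798 for number 2 and 438 for control 1 with paraquat 2. With wildtype KDM5 peaks as units they were 606 for number 1 and 187 for number 2, and at equal lengths 361 for number 1 and 364 for control 2 with paraquat 1. The last 3 settings were chosen after seeing the data.

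The members' wildtype KDM5 share was 72.4% with summits within 250 bp and 19.4% with 50% of both intervals overlapping, and the H3K4me3 share was 11.7% by the latter. The H3K4me3 share was 41.7% at equal list lengths and 38.9% with 200 bp intervals. The paraquat 1 median percentile was 46.6 and 42.8 in the same settings, and the median width 418 and 278 bp. The 46.6 is a rank in the full deposited list, from which the weakest peaks had been dropped, and not in the shortened list. The core distance was 3098 bp with 200 bp intervals, and the paraquat 2 peak alone was 179 bp wide. The causes of these shifts were not tested.

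With 1 library left out the rule changes form, since fewer lists must hold or lack a peak. Without control 1, 360 regions leaned to paraquat and 520 to control, and without control 2 the counts were 372 and 964. Without paraquat 1 they were 983 and 282, and without paraquat 2 they were 2809 and 17. The control-leaning count was thus the larger whenever a control library was left out, and the smaller whenever a paraquat library was. Without either control library in turn, the H3K4me3 share was 20.4% to 34.4%, the median percentile 35.4 to 38.5 in paraquat 1 and 19.5 to 30.8 in paraquat 2, the core distance 1766.5 to 1803.5 bp and the width 305.5 to 332 bp. Depth is unknown, so a missing peak may reflect a library's depth as well as its KDM5, and these cannot be told apart.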
